A study of Caenorhabditis elegans with 2 samples.

Results

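SMA-9 peaks whose summits lay in coding exons or 3′ UTRs of autosomal genes, away from any coding promoter, are described here. ChIP-seq, in which DNA bound by a protein is precipitated and sequenced, was done for SMA-9 on 2 biological replicates of whole Caenorhabditis elegans larvae of the L2 stage, male and female animals pooled. Both replicates are of strain OP130, which carries the unc-119(ed3) allele and the transgene insertion wgIs130 for an eGFP-tagged SMA-9, so no untagged or mutant group was compared. The labels name the antibody only by the target, and each library mixes all tissues of the larva, so cell types cannot be told apart. Of the 30000 peaks in the list made from the pooled reads, 4865 (16.2%) were kept: those with a summit on an autosome, in a coding sequence (CDS) or 3′ UTR of Ensembl release 115 (WBcel235, the coordinates of ce11), and over 500 bp from every protein-coding transcript start. The rule uses position alone, and no measured value chose the members.

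SMA-9 is a large protein with C2H2 zinc fingers, related to Schnurri of Drosophila. In the control of body size it works with SMADs of the worm's BMP-like pathway, known as Sma/Mab, whose ligand is DBL-1. Such factors are known mainly from binding at promoters and enhancers, whereas coding exons carry the protein sequence and 3′ UTRs regulate the transcript. The relaxed lists hold background beside peaks, as their own description says.

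Sequence at the strongest members is shown to give the DNA at the centre of the peaks on which the results turn. These are the 4 strongest CDS members on II to V for which the 30 bases around the summit are all coding, read from the RefSeq WBcel235 assembly and written 5′ to 3′ on the strand of the gene, the minus strand in each case. Capitals mark a match to one of 10 searched motifs, here GTCT, the core of SMAD binding sites. Both strands were searched.
nphp-1 (chrII:10650037-10650066): atccGTCTagttcgatttgaaaagatgccc
str-15 (chrV:16457784-16457813): caattcccaactccaccgaaacattcatcc
nas-28 (chrIII:6182155-6182184): acGTCTatgtggactttagcaatatcattc
uba-1 (chrIV:9990985-9991014): ttgcccgcatgttctcaattttgatccatc

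The first and the third hold GTCT and the other 2 hold no searched motif in these 30 bases. GTCT is short: 63.2% of members and 60.7% of all pooled peaks had it, on either strand, within 200 bp centred on the summit.

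Members were common in the list and rare at its top. The authors' thresholded list, which holds the strongest pooled peaks, had 1 member, a CDS peak in nphp-1. That is 0.0206% of members (exact 95% interval 0.000520% to 0.114%, which covers counting error over peaks only), against 0.417% of all pooled peaks. Among the 1000 strongest pooled peaks by signal (the authors' value per peak, with no scale stated), 123 were members, which is 2.53% of members against 3.33% of all pooled peaks. The median rank of members was 15409, against 15000.5 for the whole list. With peaks ranked by the score in column 9 it was 14821, on the other side of the list's middle. That score does not follow signal throughout. A col-121 peak of rank 938 by signal was at 29739 by score, and an atf-7 peak of rank 20892 by signal was at 9497. The column 9 median is therefore not a second measure of strength. Peaks of 1 list are not replicates and both libraries form 1 group, so no test of these differences was made.

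The strongest member lay in nphp-1 (WBGene00010898, chrII:10648893-10652256, minus strand), which encodes nephrocystin-1 of the transition zone of sensory cilia. Its peak spans chrII:10649860-10650243, with the summit at 10650052 in exon 6 of 9, 2204 bp downstream of the gene's start, and 62.5% of its 384 bp are CDS or 3′ UTR. The pooled signal was 36.7, rank 105. The overlapping peak had a signal of 21.5 in replicate 2, rank 24, and 15.1 in replicate 1, rank 1859. The locus was therefore near the top of one replicate's list and far below the top of the other's. The 2 replicate summits also differ in place: that of replicate 2 lay 13 bp from the pooled summit in the same exon, and that of replicate 1 lay 145 bp away in an intron. The nearest stronger pooled summit was 86464 bp away, and at the start of nphp-1 itself the best pooled peak had rank 14433.

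Just below the thresholded peaks came members in D2023.3, mtd-1, str-15, nas-28 and ceh-8. The 3′ UTR of D2023.3 (chrV:11801827-11812021) held the peak of rank 134 (signal 33.9), with a signal of 21.8 in replicate 1 (rank 198) and 9.71 in replicate 2 (rank 2738). It was the only one of the 20 strongest members with a stronger pooled summit within 1 kb, at 926 bp, and its summit in replicate 1 lay 159 bp away, outside the exon. Of all members, 973 (20%) had a stronger pooled summit within 1 kb, against 20.8% of all pooled peaks, so members need not be separate loci. The peak of rank 170 lay in the 3′ UTR of ceh-8, a homeobox gene, 96 bp from the start of the noncoding RNA gene ZK265.11, with ranks 482 and 1051 in replicates 1 and 2.

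Members in mtd-1, str-15, nas-28 and atf-7 were strong in both replicates. mtd-1 (WBGene00003471) had a peak of rank 152 (signal 32.7) at its last exon, with signals of 20.7 in replicate 1 and 13.3 in replicate 2 (ranks 268 and 322). The summits of the replicates lay 50 and 3 bp from the pooled one. In str-15, of the str family of seven-transmembrane chemoreceptors, the pooled signal was 32.5 (rank 154), the replicate signals were 20.1 and 12.5 (ranks 305 and 506) and both summits fell within 17 bp of the pooled one. In nas-28, which encodes an astacin-like metalloprotease, the pooled signal was 32.01 (rank 169) and the replicate signals were 17.9 and 13.3 (ranks 647 and 327). The 3′ UTR of atf-7, a bZIP transcription factor of innate immunity, held a peak of rank 228 (29.9), with signals of 19.4 and 12.8 (ranks 386 and 428). At mtd-1 and atf-7 the gene's own start also had a pooled peak, of rank 944 and 1052, that of nas-28 had one of rank 10767, and str-15 had none in the list within 500 bp of its start.

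A peak ranked 1 to 1000 lay over 6 members in both replicates (0.123%), against 0.463% of all pooled peaks. They were the 4 just named, a CDS peak in F59A6.4 of rank 665 (ranks 738 and 530 in replicates 1 and 2; named after its values were seen), and a second atf-7 peak of rank 20892. The last lay 202 bp from the first and was matched to the same replicate peaks, so the 6 stand for 5 loci. Of the 139 pooled peaks with such overlap, 82 were thresholded peaks, where members are rare. At ranks 126 to 1000 it held for 5 of 122 members and for 29 of 875 pooled peaks, so members were not lower at like rank. Each replicate taken alone gave more: the 1000 strongest of replicate 1 overlapped 107 members (2.20%) and those of replicate 2 overlapped 182 (3.74%), against 3.8% and 3.55% of all pooled peaks.

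**Figure D1:**
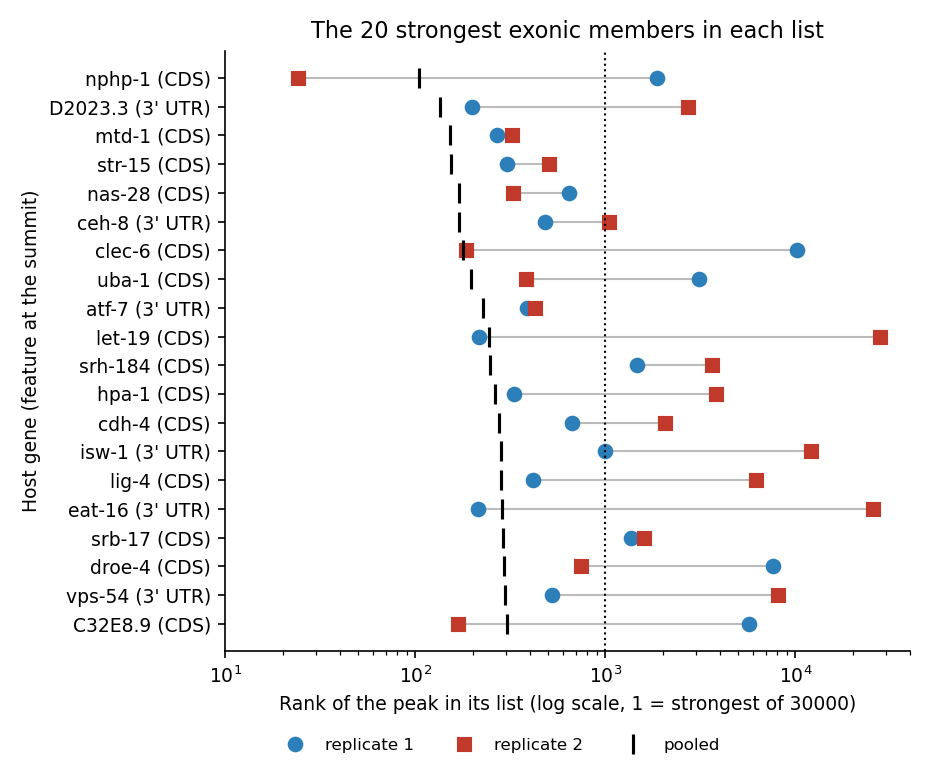
Rank of the 20 strongest members in the replicate 1, replicate 2 and pooled lists (log axis, 1 is the strongest of 30000 peaks), with the host gene and feature on the vertical axis and a dotted line at rank 1000. Members such as mtd-1, str-15, nas-28 and atf-7 have both replicates left of the line, while let-19, eat-16, isw-1 and clec-6 are strong in 1 replicate and beyond rank 10000 in the other.

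The other strong members differed widely between the replicates. The 20 strongest had pooled signals of 28.3 to 36.7, 14 of them in CDS, and all 20 overlapped a peak of each replicate list. Their replicate 1 ranks had a median of 585.5 and their replicate 2 ranks 1327.5, and 4 of the 20 were in the top 1000 of both. Both replicate summits also satisfied the rule for 12 of the 20. In let-19, which encodes the MED13 subunit of the Mediator complex, the signal was 21.4 in replicate 1 (rank 215) and 4.82 in replicate 2 (rank 27871). In the 3′ UTR of eat-16, a regulator of G protein signalling, it was 21.5 (rank 213) and 5.04 (rank 25606). The start of eat-16 carried a thresholded peak of rank 122, and the stronger pooled summit nearest to the 3′ UTR one was 3181 bp away. The reverse held in clec-6, a gene of the C-type lectin family, where the signal was 10.6 in replicate 1 (rank 10212) and 14.3 in replicate 2 (rank 184).

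The remaining ones of the 20 were of mixed function. The E1 ubiquitin-activating enzyme gene uba-1 (rank 195) had replicate ranks 3097 and 381 in replicates 1 and 2. The cadherin gene cdh-4 (rank 276) had 669 and 2069, the DNA ligase gene lig-4 (rank 282) had 418 and 6200, and the 3′ UTR of isw-1, an ISWI chromatin remodeller (rank 281), had 999 and 12103. The chemoreceptor genes srh-184 (rank 247) and srb-17 (rank 288) had 1472 and 3634, and 1366 and 1604. At srh-184 the replicate 2 summit was 303 bp from the pooled one, in an intron. Ranks were 329 and 3814 for hpa-1 (rank 263), 7661 and 748 for droe-4 (rank 291), 524 and 8121 for the 3′ UTR of vps-54, a Golgi tethering factor (rank 297), and 5686 and 168 for C32E8.9 (rank 302). The 50 bp at the summit occurred once in the genome for all 20 of these peaks, and more than once for 11 of the 4865 members (0.226%), against 0.443% of all pooled peaks.

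Compared with the length of sequence in which a member could lie, members were close to proportional except at the top. Autosomal CDS and 3′ UTR over 500 bp from coding starts make up 17.3 Mb, 17.3% of the nuclear genome. Members came to 281 per Mb, against 299 per Mb for all pooled peaks, and to 7.09 per Mb in the top 1000, against 9.97. All pooled peaks include the X chromosome, which the rule leaves out and where peaks were denser. There, exons and 3′ UTRs had 357 per Mb and the rest 384. On autosomes, density was 295 per Mb within 500 bp of coding starts, 267 in introns and 286 elsewhere, so that of members lay within this range. The other autosomal classes had 9.59 per Mb in the top 1000 within 500 bp of coding starts, 8.42 in introns and 10.4 elsewhere. By rank, members were 0.8% of the thresholded peaks, 13.9% of ranks 126 to 1000, 15.1% of ranks 1001 to 3000 and 16.0%, 16.5% and 16.7% of the 3 bins that follow.

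**Figure D2:**
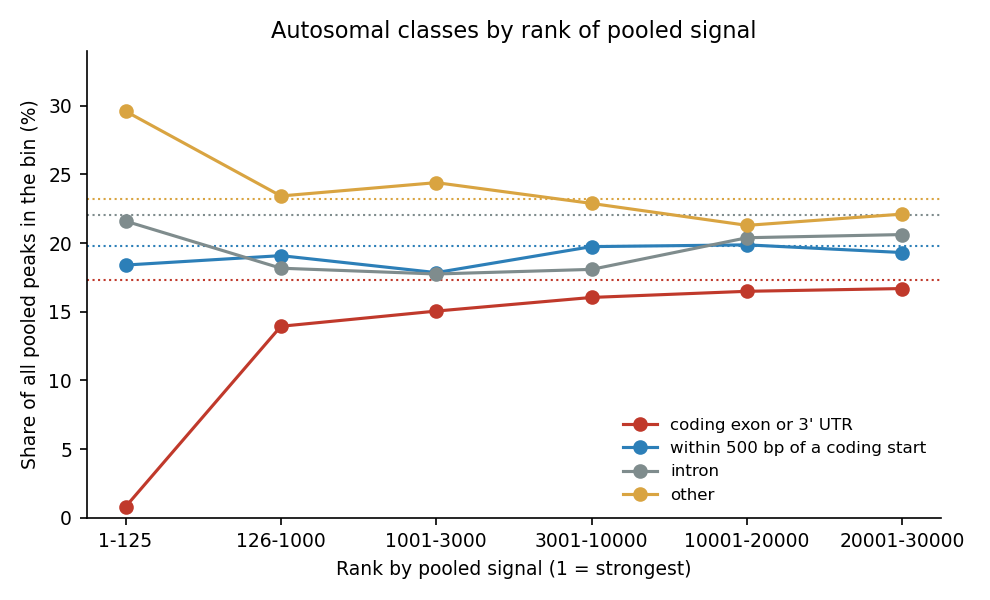
Share of pooled peaks (vertical axis, %) in each of 4 autosomal classes by bin of rank of pooled signal, with dotted lines for the share of the nuclear genome each class takes. The line for coding exons and 3′ UTRs is at 0.8% in the first bin and between 13.9% and 16.7% in the others, below its dotted line at 17.3%. Shares are of all pooled peaks in the bin, those on the denser X chromosome included.

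The 3′ UTR members and the CDS members differed in density. There were 4140 members in CDS, 49 of them also in a 3′ UTR of another transcript, and 725 in a 3′ UTR only. The 3′ UTR members reached 346 per Mb and 10.5 per Mb in the top 1000 (22 peaks), whereas the CDS members reached 272 and 6.63 (101 peaks). Median ranks were 15201 and 15420.5. The whole 384 bp of a peak lay in exon sequence for 1013 members (20.8%), and the median share was 79.7%, so most peaks extend into an intron or beyond the gene. A start of a transcript not classed as protein-coding lay within 500 bp of 349 members (7.17%), against 13.6% of intron peaks and 24.6% of autosomal peaks elsewhere. Of the 349, 170 were on chromosome IV (20.1% of members there, against 2.80% to 5.73% on the other autosomes). An exon of such a transcript also held 144 summits (2.96%), against 4.10% of all pooled peaks.

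Recurrence in the replicate lists was near that of the whole list. Both replicate lists had a peak overlapping by at least 1 bp for 1618 members (33.3%), against 33.8% of all pooled peaks. Replicate 1 overlapped 65.8% of members against 69.5% of all peaks, and replicate 2 overlapped 59.6% against 56.7%. A further 1581 members were found in replicate 1 only, 1281 in replicate 2 only and 385 (7.91%) in neither. Of all 30000 pooled peaks, 10717 were in replicate 1 only, 6871 in replicate 2 only and 2273 (7.58%) in neither. The pooled list was made from the same reads. The replicate lists cover 10.5% and 11.1% of the genome. Presence in both was lower at lower signal: 92.6% of the 122 members of ranks 126 to 1000, and 14.1% of those beyond rank 20000, against 86.3% and 14.5% of all peaks in those bins. Where both replicates had a peak, both of their summits also met the rule for 1048 of 1618 members (64.8%). The same share was 72.4% for introns, 86.8% within 500 bp of coding starts and 93.1% for autosomal peaks elsewhere. The classes differ in how far a summit can shift before it leaves them, and the part of this in the shares was not tested.

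**Figure D3:**
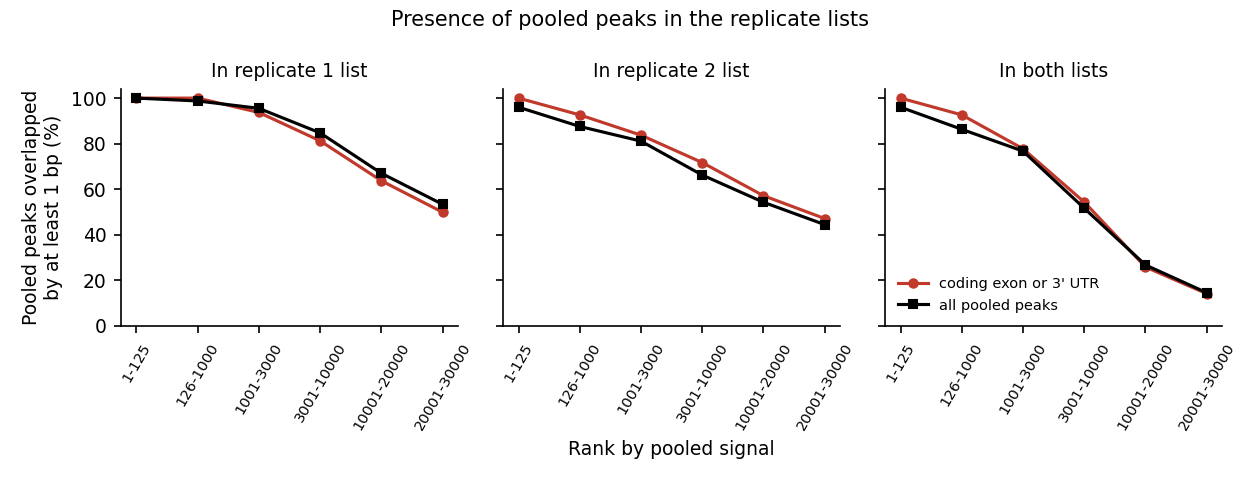
Share of pooled peaks (%) overlapped by at least 1 bp in the replicate 1 list, the replicate 2 list and both, by bin of rank, for members (circles) and all pooled peaks (squares). The curves lie close, with members slightly lower in replicate 1 and slightly higher in replicate 2 beyond rank 1000.

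The replicates ordered the members differently. Over the 1618 members present in both lists, Spearman's rho between the replicate signals was 0.0384, and over all 10139 such pooled peaks it was 0.0771. On the log2 scale, the signal of replicate 1 over that of replicate 2 had a median of 0.55 for members (SD over peaks 0.52) and 0.60 for all. These peaks share 2 libraries, and the values are descriptions across peaks.

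Replicate 2 held more exonic peaks than replicate 1, most of all at its top. Applied to each list, the rule kept 5690 peaks of replicate 2 (18.97%) and 4529 of replicate 1 (15.1%). Among the 1000 strongest of each list it kept 175 (17.5%) in replicate 2 and 95 (9.50%) in replicate 1, and among as many of the strongest as the thresholded list has peaks it kept 9 in replicate 2 and 1 in replicate 1. Named after their values were seen, the 9 in replicate 2 lay in CDS of nphp-1 (rank 24), pho-1 (80), C15F1.2 (97), F44G4.1 (98), Y51H4A.22 (99), tag-68 (110), F34D10.4 (115), F10E7.1 (118) and pqn-92 (123). Of these, nphp-1 alone overlapped a top 10000 peak of replicate 1. The peaks in F44G4.1, Y51H4A.22, tag-68, F34D10.4 and F10E7.1 overlapped none in its list, and those in pho-1, C15F1.2 and pqn-92 had ranks 22630, 12702 and 11239 there. The 1 in replicate 1 lay in npax-3 (rank 99), with no overlapping peak in replicate 2. Exonic sequence is richer in G and C than the rest, and mean GC over 200 bp was 36.1% over all replicate 2 peaks and 33.9% over all replicate 1 peaks. Among the 1000 strongest it was 38.2% in replicate 2 and 36.6% in replicate 1. Among as many of the strongest as the thresholded list has peaks, the order was reversed, with 43.6% in replicate 2 and 44.2% in replicate 1. The part of GC in this difference was not tested.

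**Figure D4:**
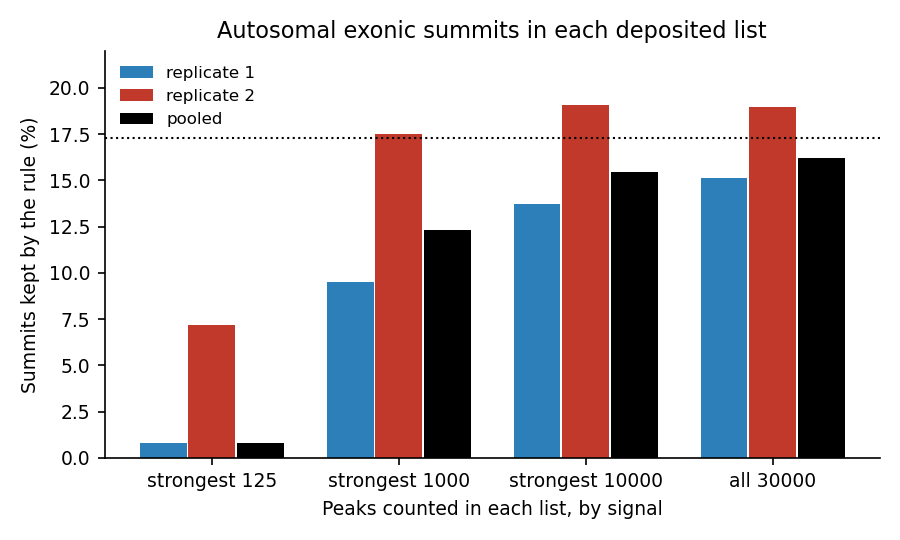
Share of peaks kept by the rule (vertical axis, %, from 0) among the strongest (as many as the thresholded list has, 1000 and 10000) and all 30000 peaks of the replicate 1, replicate 2 and pooled lists, with a dotted line at 17.3%, the share of the genome the rule can reach. Replicate 2 is highest at every depth, from 7.2% in the first group of bars to 18.97% of its list, against 0.8% and 15.1% in replicate 1.

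GC averaged 38.2% (SD 6.24 over members) in the 200 bp around member summits, against 34.7% around all pooled summits. It was 39.3% for members in CDS and 32.02% for those in 3′ UTRs. These windows can run into introns and flanks, so they were not set against the GC of exons alone. GC of the 123 members in the top 1000 was 37.8%, and the thresholded peaks averaged 46.2%. Presence in the replicates also moved with GC: of the 2509 members at 38% GC or above, 60.7% were in replicate 1 and 63.0% in replicate 2, while of the 663 at 31.5% or below the shares were 73.0% and 55.1%. All pooled peaks gave 64.4% and 64.0%, and 73.5% and 50.7%, in the same ranges.

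Motif shares of members lay above those of the whole list for some motifs and below for others. GAGAGA was in 9.37% of the 200 bp windows of members and in 12 of the 123 windows of members in the top 1000 (9.76%), against 10.4% of all pooled peaks. CACGTG, the E-box of bHLH factors, was in 4.81% of members, 5.69% of the strong ones and 3.40% of all. The core of GATA factor sites, GATAA, was in 40.9%, 45.5% and 40.1%. GGCGCC, a GC-rich site known for SMADs of the BMP branch, was in 0.822% of members, none of the 123 strong ones and 1.27% of all. AGGTCA, the core of nuclear receptor sites, was in 3.86%, 2.44% and 4.84%. The shares of members and of all pooled peaks were 7.52% and 6.83% for CCGGAA, 12.2% and 13.9% for TTTCCC, 2.06% and 2.83% for GGGCGG, and 1.91% and 2.12% for TGACTCA. Both strands were searched, and a match says only that the letters are there.

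Members were spread over 3895 host genes, 22.6% of the 17242 autosomal coding genes, and 3187 of these genes held a single summit. The number per gene went with the length of sequence the rule can reach. With genes in 5 equal classes by that length, 51.6% of the longest class had a member and 6.66% of the shortest, while the density was 276 and 315 summits per Mb. The most summits lay in ttn-1, the giant muscle protein titin, with 13 (best rank 303). Next came lrp-1, a megalin-like receptor of the epidermis, with 12 (best rank 722), unc-22, the muscle protein twitchin, with 10 (3948), lrp-2, a related receptor gene, with 10 (8898), and let-19 with 9, a number shared with fbn-1. Per kb of reachable sequence this is 0.237 in ttn-1, 0.826 in lrp-1, 0.457 in unc-22, 0.680 in lrp-2 and 1.01 in let-19. Over all autosomal coding genes it was 279 per Mb. These genes were picked for their number of summits, so their densities depend in part on that choice. The best ttn-1 peak had rank 703 in replicate 1 and 21235 in replicate 2, and the best lrp-1 peak had 139 and 16406.

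Along the chromosomes, members were denser in central regions than on arms. The outer 25% at either end held 34.4% of members and 41.0% of reachable sequence, or 235 per Mb against 312 per Mb in the centre, and each of the 5 autosomes had the lower density in its outer parts. Within the host gene, density was 234 per Mb in the first of 5 equal parts of the gene body and 294 in the last. The parts between them had 271, 256 and 283 per Mb, in order. Both patterns were counted for members only. Whether they are particular to members or hold for all pooled peaks was not tested. At the 500 bp limit of the rule, the 290 exonic peaks at 501 to 600 bp from a coding start had a median rank of 16233 with 12 in the top 1000, and the 309 at 401 to 500 bp, left out, had 15985 with 8.

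Genes of the Sma/Mab pathway, in which SMA-9 acts, held members with best ranks between 1105 and 24507. Of 14 autosomal genes of the pathway list with reachable sequence, 8 had a member, against 24.9% of all such genes, with a median reachable length of 1297 bp against 804 bp. Per length, the list had 378 summits per Mb (11 summits), against 279 per Mb over all autosomal coding genes. None was in the top 1000, and 6 of the 14 genes (42.9%) had a member in the top 10000, against 9.06% of all such genes. Per length, the top 10000 gave 206 summits per Mb for this list (6 summits), against 88.7 over all such genes. Other lists had 216 (homeobox), 208 (neuropeptides), 103 (muscle sarcomere), 91.1 (nuclear hormone receptors) and 50.3 (cuticle collagens). The single yolk gene had 431, and ribosomal protein, histone and heat shock genes had none. The best was in CDS of crm-1, a cysteine-rich modulator of BMP signalling, at rank 1105, found in replicate 2 (rank 1452) and in no peak of replicate 1. Next were the neogenin-like receptor gene unc-40 at rank 1952 (replicate 1 alone), the type I receptor gene sma-6 at 3263 (ranks 11977 and 6074 in replicates 1 and 2) and the 3′ UTR of the ligand gene dbl-1 at 4017 (replicate 1 alone). The convertase gene bli-4 had its best member at 6521, the SMAD genes sma-3 and sma-2 at 7325 and 24507, and the tetraspanin gene tsp-12 at 15860. Of the 8, sma-6 and sma-3 alone had their best member in both replicate lists.

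Other gene groups were counted in the same way, beside the 24.9% of all genes with a member and 279 summits per Mb. Homeobox genes had members in 23 of 61 genes (37.7%), the best in ceh-8 and in ceh-81 (rank 358, ranks 2257 and 959 in replicates 1 and 2). The Hox genes lin-39, mab-5, egl-5, ceh-13 and php-3 had theirs at ranks 7248 to 28497, and nob-1 had none. The best members of egl-5, mab-5 and ceh-13 were in replicate 1 alone, that of lin-39 in replicate 2 alone and that of php-3 in neither. Muscle sarcomere genes had members in 15 of 27 (55.6%), in long genes with a median of 2377 reachable bp. The best of these were ttn-1, the myosin gene myo-5 (rank 349, ranks 3970 and 999 in replicates 1 and 2) and the body wall myosin gene unc-54 (rank 954, ranks 672 and 11181). Their density of 272 summits per Mb was close to the 279 of all genes, whereas that of homeobox genes was 558. Nuclear hormone receptor genes had members in 63 of 246 (25.6%), the best in nhr-138 at rank 643, and a density of 294 per Mb.

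Cuticle collagen genes, which build the body wall cuticle, had members in 16 of 145 (11.03%, against 24.9% of all genes), with the best in col-121 at rank 938 (ranks 2660 and 4743 in replicates 1 and 2) and a density of 171 per Mb, against 279 over all genes. Neuropeptide genes are short, with a median of 286 reachable bp, and 9 of 79 (11.4%) had a member, at a density of 374 per Mb, with the best in nlp-9 at rank 1035, found in replicate 2 (rank 277) and in no peak of replicate 1. Heat shock protein genes had 6 of 16 (37.5%), at a density of 411 per Mb, the best in hsp-17 at rank 12192 and none in the top 10000. Ribosomal protein genes had 2 of 44 (4.55%), with rpl-5 at rank 18411. They are short in reach, with a median of 171 reachable bp, and their density was 196 per Mb. The yolk gene vit-6 had 4 summits with a best rank of 5753. Of 68 autosomal histone genes, 3 are long enough for the rule to reach and 0 of them had a member.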

How the data were processed

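Per the deposited text on the lists, each relaxed list was made from the aligned reads of 1 replicate or of both pooled, together with a further file that also served control-normalized tracks, and the thresholded list was derived from these lists. The sources used here give no aligner, peak caller or threshold, and read depth is unknown. Column 7 of the deposited lists is a signal with no stated scale, and column 9 a score, below 0 for most pooled peaks and used only to rank. The ce10 lists and control libraries were not used here.

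Summits were column 2 plus column 10 plus 1 (1-based). Peaks were ranked by column 7 (Python 3.11.15, pandas 2.3.3, SciPy 1.17.1). A replicate peak matched at an overlap of at least 1 bp, the best-ranked where several did. Stop codons were counted as CDS. Peaks are 384 bp wide in the pooled and replicate 2 lists and 360 bp in replicate 1. Classing and matching were checked on simulated peaks, with 300 of 300 right in each of 3 checks.

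The members, gene lists, motifs and the rule for named genes (thresholded members, the 20 strongest, the 5 best in both replicates, the 5 just below the threshold, the 5 genes with most summits, the best of each list) were chosen with earlier results of these data known. Genes outside it are said to be named afterwards or are members of a list. Replicates are those numbered in the labels.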

Additional observations from a re-analysis of the deposited data

How the results depend on the processing

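Most counts kept within 1.5 times under the alternatives for the start distance, noncoding starts and CDS alone. With the rule applied to either replicate's own list, the number kept was 4529 to 5690, those overlapping a thresholded peak 0 to 1, those in the top 1000 95 to 175, those overlapped in the other list 1595 to 1737, those in the top 1000 of both 5 in either case, and the median rank 15122 to 15875. The thresholded member was lost with the replicate 1 list, whose nphp-1 summit lies in an intron. Among the 62 strongest pooled peaks there were 0 members. By construction, counts moved with the rank limit: 49 members in the top 500 and 259 in the top 2000, and 3 and 93 overlapped by the 500 and 5000 strongest of both replicates. Requiring replicate summits within 100 bp left 817 members in both lists (16.8%, against 17.2% of all pooled peaks). Ranking by column 9, which does not follow signal throughout, gave a median rank of 14821, the other side of the list's middle, and the cause was not tested. Gene lists had 143 genes with a member in all, and 59 with the 10000 strongest peaks. No paired analysis was possible because there is 1 group. Unknown depth, 2 libraries and lists of fixed length limit what these counts show.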
